A study of Homo sapiens with 4 samples.

Results

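U1 small nuclear RNA (snRNA) was followed here through 5 of its genes in RNA pulled down by an SF3B6 antibody (IP) and in input RNA of MDA-MB-231 cells, a human triple-negative breast cancer line. The 5 genes are the U1 genes RNU1-1 and RNU1-4 and the variant U1 genes RNVU1-7, RNVU1-28 and RNVU1-31. They were taken by symbol from a table of 18276 genes, which holds 26 genes whose symbols start with RNU1- or RNVU1-. TMM scaling sets libraries so that most genes match. With it and a filter on low counts, no U1 gene passed the test between IP and input. The sum of all U1 genes lay 0.05 from the median gene on the log2 scale. That distance was 0.38 without input 1 and -0.31 without input 2. It was 0.74 with no filter on low counts, where the median covers all 18276 genes, most of which the filter removes. In that fit RNU1-4 was among 163 genes that passed as lower in IP. On the library totals behind the authors' length-scaled values (FPKM), 3 of the 5 genes passed as lower, as did 2098 of 3668 tested genes. Within U1, RNVU1-28 led in IP and RNU1-4 in input. The interval of their ratio included 1 in IP 1 and in input 2, and RNVU1-28 overlaps another gene. Their ratios did not overlap between IP and input, as was so for 57.4% of pairs of abundant genes.

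U1 is the RNA of the U1 small nuclear ribonucleoprotein (snRNP), which finds introns by pairing its 5′ end with the 5′ splice site. It also shields nascent transcripts from early cleavage and polyadenylation. SF3B6 belongs to SF3b, a part of the U2 snRNP that acts at the branch point, toward the other end of the intron. U1 and U2 snRNPs meet in the first stable complexes of spliceosome assembly, and U1 leaves before the catalytic steps. Human U1 genes lie in clusters on the short and long arms of chromosome 1, the long arm holding most of the variant genes, whose RNAs can differ from the major U1 RNA by base changes.

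There were 2 IP and 2 input libraries, each pair called biological replicates in the series' design text. Nothing in the labels says that they came from separate cultures, so p-values measure the spread between these libraries, which may be technical. All cells were irradiated at 400 mJ/cm2 and lysed, and the lysate was digested with micrococcal nuclease. The IP libraries came from a pull-down with 5 ug of antibody, and the input libraries are labelled as the input control. An IgG antibody is named in the protocols, and no IgG library was analysed here. All 4 titles give MDA-MB-231, while the separate cell line labels of these libraries end in different digits.

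Counts in genes were 55492 and 30431 in IP 1 and 2, and 317190 and 519836 in input 1 and 2. A count of 0 in these libraries allows up to 3 counts, or 54.1, 98.6, 9.46 and 5.77 CPM (counts relative to 1e+06 counts in genes). Such floors and all intervals below cover counting error only. All 8 markers fixed for MDA-MB-231 were in the table. They summed to 2925 to 3262 CPM of counts in genes in IP and 4634 to 5146 CPM in input. CAV1 had 0 counts in IP 2. AXL alone gave 97 of 181 and 46 of 89 marker counts in IP, and 871 of 1470 and 1537 of 2675 in input. Of 9 luminal and epithelial markers, fixed as low in this line, 7 were listed (919 to 953 CPM in IP, 1296 to 1393 CPM in input). The estrogen and progesterone receptor genes ESR1 and PGR were not in the table. In input 2, KRT8, KRT18, KRT19 and ERBB2 had 253, 175, 127 and 147 counts, against 3, 4 and 15 for CDH1, EPCAM and GATA3. Blood markers summed to 2 counts, both in IP 1. Of the basal markers, KRT5 had 4 counts in IP 1 and 0 in the other libraries, and KRT14 and TP63 were not in the table. Fibroblast markers summed to 126 and 98.6 CPM in IP and to 97.7 and 106 CPM in input.

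All 5 genes lie on chromosome 1 and have a length of 164 bases in RefSeq (GRCh38.p14, the same build as the hg38 named by the submitters). RNU1-1 spans 16514122 to 16514285 and RNU1-4 spans 16740516 to 16740679, on the short arm. RNVU1-28 spans 144560666 to 144560829, RNVU1-31 spans 145465617 to 145465780 and RNVU1-7 spans 148038753 to 148038916, on the long arm. RNVU1-28 overlaps a long non-coding RNA gene, LOC105379574, and the other 4 overlap no other gene of that table. The nearest protein-coding gene to RNVU1-7 is GPR89B, at a distance of 12819 bases. Of the 26 U1 genes 25 matched RefSeq, RNVU1-29 being the exception. Whether counting used strand, and how reads with several matches were assigned, was not given in the sources used here. U1 genes are near-identical in sequence, so how reads were shared among them is uncertain, and for RNVU1-28 reads of LOC105379574 cannot be told apart.

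Summed over all 26 genes, U1 had 198 and 104 counts in IP 1 and 2, and 1559 and 1700 in input 1 and 2. After this normalization the sum was 4361 and 4519 CPM in IP and 5492 and 3468 CPM in input. Both IP libraries lay between the 2 inputs, which stood farther apart from each other than from the IP. The means were 4440 ± 112 CPM in IP and 4480 ± 1432 CPM in input (SD, n = 2 libraries each). On the log2 scale the SD was 0.04 in IP and 0.47 in input. The log2 fold change of the sum (IP minus input) was -0.01 ± 0.22 (SE, edgeR), and the median of all tested genes in the same fit was -0.06. Leaving out input 1 put it at 0.42 and leaving out input 2 at -0.27, with medians of 0.04 in both fits. As a share of counts in genes, U1 made up 0.357% and 0.342% in IP, with Wilson intervals from 0.311% to 0.410% and from 0.282% to 0.414%. In input it made up 0.492% (0.468% to 0.516%) and 0.327% (0.312% to 0.343%).

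The 5 genes held 77.3% and 88.5% of U1 counts in IP and 83.3% and 85.9% in input. A further 4 U1 genes had enough counts to be tested, and 17 did not. The 17 had at most 19 counts each over the 4 libraries, and 13 of them, with 29 counts in all, had 0 in both IP libraries. The IP libraries had counts in 12 and 10 of the 26 genes, and the inputs in 21 and 23.

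Among genes of one length, levels can be compared as FPKM, the authors' value scaled by the length of the gene and by a total for the library. In input, RNU1-4 was the most abundant at 1411 ± 221 FPKM (SD, n = 2), followed by RNVU1-28 at 1160 ± 46.4 FPKM and RNVU1-31 at 612 ± 52.3 FPKM. RNVU1-7 stood at 273 ± 7.37 FPKM and RNU1-1 at 159 ± 51.9 FPKM. The ranges of the 2 input libraries did not overlap between neighbours in this order of the 5 genes. Below RNU1-1, the ranges of RNU1-2, RNVU1-29, RNU1-27P and RNVU1-18 overlapped with that of the gene above each.

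In IP, RNVU1-28 came first at 531 ± 22.9 FPKM and RNU1-4 second at 301 ± 98.3 FPKM, and their ranges did not overlap. RNVU1-31 followed at 137 ± 22.1 FPKM, then RNVU1-7 at 129 ± 57.8 FPKM and RNU1-1 at 76.6 ± 39.6 FPKM. RNVU1-7 overlapped with both RNVU1-31 and RNU1-1. All 5 FPKM means were lower in IP than in input. The library totals behind FPKM were worked out here from the counts, FPKM values and RefSeq lengths of these 5 genes. Counts in genes made up 7.32% and 6.07% of the library totals behind the FPKM values in IP, against 15.0% and 20.4% in input, and on those totals 2098 of the 3668 tested genes were called lower in IP and 17 higher (edgeR).

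**Figure D1:**
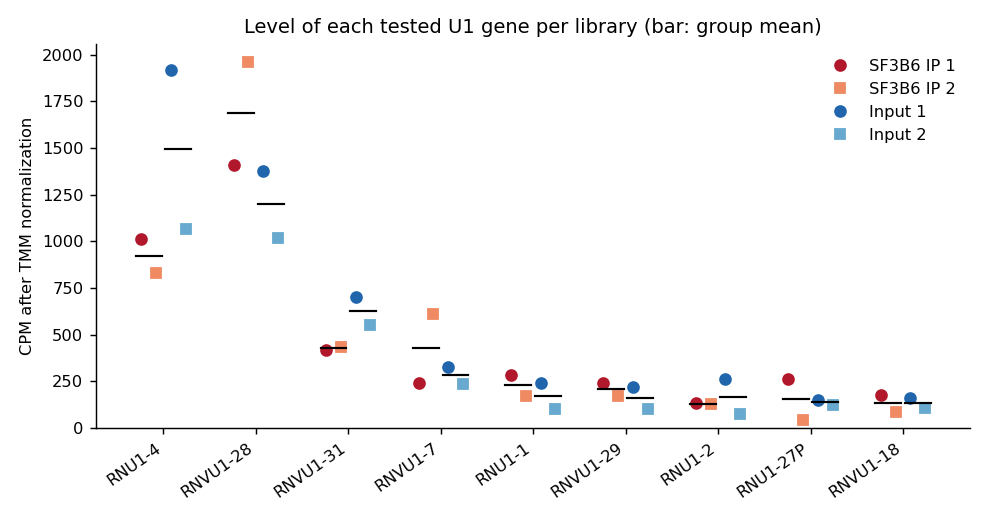
Level of the 9 tested U1 genes in each library, in CPM after TMM normalization; points are libraries and black bars are the means of 2 libraries. RNU1-4 and RNVU1-31 were lower in both IP libraries than in both inputs, RNVU1-28 was higher, and the other 6 genes overlapped.

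Of the 5 genes, 0 passed the test between IP and input (edgeR, adjusted p under 0.05), and DESeq2 also called 0. At an unadjusted p under 0.05 edgeR gave 2 of the 5, RNU1-4 and RNVU1-28, against 15.6% of all tested genes, and DESeq2 gave 0, against 7.50%. The same edgeR fit called 4.06% of all 3668 tested genes, 2.70% as higher and 1.36% as lower in IP. Both IP libraries lay above both inputs for 1 of the 5 genes, against 20.9% of tested genes, and below both for 2 of the 5, against 28.5%. The median log2 fold change of the 5 genes was 0.43, against -0.06 over all tested genes.

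RNU1-4, one of the major U1 genes, had 46 and 19 counts in the IP libraries and 545 and 524 in the inputs. In normalized terms it stood at 1013 and 828 CPM in IP and at 1917 and 1068 CPM in input. Both IP libraries were lower than both inputs, although IP 1 lay close to input 2. The means were 920.4 ± 131 and 1493 ± 601 CPM (SD, n = 2), with a log2 fold change of -0.64 ± 0.27 (SE, edgeR adjusted p = 0.203). This difference moved to -0.14 without input 1 (adjusted p = 0.881), -1.04 without IP 1 (0.123) and -0.997 without input 2 (0.0720). With no filter on low counts it was at -1.11 and passed (edgeR adjusted p = 0.000123), among 163 of 18276 genes called lower in IP. The median gene of that fit was at -1.23, but most of its genes had counts too low for the default filter, which kept 3668. That median is a poor reference for RNU1-4, which lay 0.12 above it. The U1 sum was at -0.49 there.

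RNVU1-28, the variant gene with the most counts, had 64 and 45 counts in the IP libraries and 392 and 498 in the inputs. It stood at 1409 and 1961 CPM in IP and at 1379 and 1015 CPM in input. Both IP libraries were higher than both inputs, IP 1 only slightly above input 1. The means were 1685 ± 390.1 and 1197 ± 257 CPM, with a log2 fold change of 0.45 ± 0.21 (SE, edgeR adjusted p = 0.294). The difference was 0.16 without IP 2, 0.75 without input 1 and 0.30 without input 2, and its direction turned with the library totals behind FPKM (-1.13), where the median of tested genes was -1.65.

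RNVU1-31, the second variant gene by counts, had 19 and 10 counts in the IP libraries and 200 and 271 in the inputs. It stood at 418 and 436 CPM in IP and at 704 and 552 CPM in input. The groups did not overlap, with IP lower. The means were 427 ± 12.3 and 628 ± 107 CPM, with a log2 fold change of -0.54 ± 0.28 (SE, edgeR adjusted p = 0.339). Without input 1 it was at -0.33.

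RNVU1-7, a variant gene on the long arm, had 11 and 14 counts in the IP libraries and 93 and 116 in the inputs. It stood at 242 and 610.0 CPM in IP and at 327 and 236 CPM in input. IP 2 was the highest of the 4 libraries and IP 1 lay between the inputs. The means were 426 ± 260.1 and 282 ± 64.2 CPM, with a log2 fold change of 0.43 ± 0.36 (SE, edgeR adjusted p = 0.601). Without IP 2 the direction turned (-0.26, adjusted p = 0.858), and without IP 1 it was at 0.95 (0.492).

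RNU1-1, the other major U1 gene, had 13 and 4 counts in the IP libraries and 68 and 51 in the inputs. It stood at 286 and 174 CPM in IP and at 239 and 104 CPM in input, so that libraries of the 2 groups alternated in order. The means were 230.3 ± 79.2 and 172 ± 95.7 CPM, with a log2 fold change of 0.68 ± 0.50 (SE, edgeR adjusted p = 0.548). Without IP 1 it was at -0.04, without input 2 at 0.06 and without input 1 at 1.25.

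**Figure D2:**
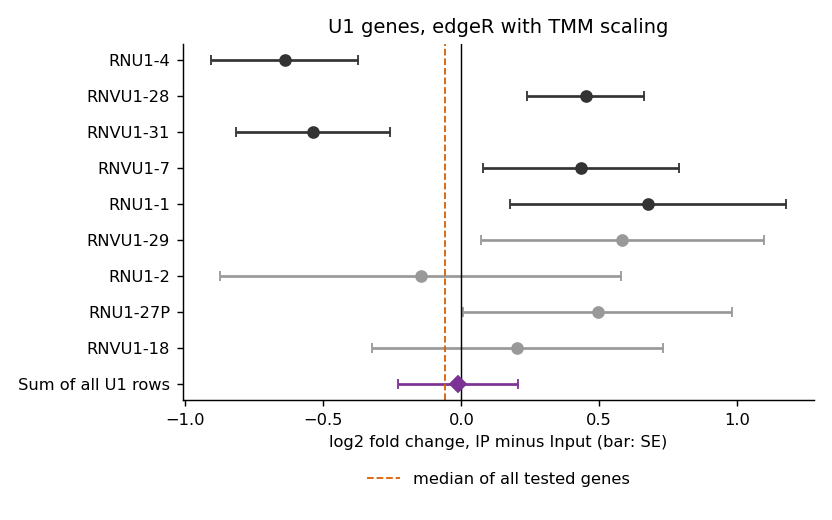
Log2 fold change (IP minus input, TMM scaling) of the 9 tested U1 genes and of the sum over all 26, with SE; black points are the 5 genes described, grey points the other 4. RNU1-4 and RNVU1-31 lay below 0 and RNVU1-28, RNVU1-7 and RNU1-1 above, none past the threshold, and the sum lay at -0.01.

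The other 4 tested U1 genes did not pass with TMM scaling. RNU1-2 passed as lower in IP with the totals behind FPKM (edgeR adjusted p = 0.0282), as did 2098 of 3668 tested genes. On log2(FPKM + 1) RNU1-2 (limma adjusted p = 0.0481) and RNVU1-18 (0.0486) passed as lower, as did 1862 of 5263 genes. RNVU1-29, a variant gene, had 11 and 4 counts in the IP libraries and 63 and 49 in the inputs, and a log2 fold change of 0.58 ± 0.51 (edgeR adjusted p = 0.634). RNU1-2, a major U1 gene on the short arm (16895980 to 16896143), was at -0.15 ± 0.73 (0.963), RNVU1-18, a variant gene, at 0.20 ± 0.53 (0.920) and the pseudogene RNU1-27P on chromosome 14 at 0.49 ± 0.49 (0.691). RNU1-2 was at -0.97 without input 2 and was not tested without input 1. RNU1-27P rested on IP 1, with 12 counts there and 1 in IP 2, and was at -1.83 without IP 1. RNVU1-29 was at 0.04 without IP 1 and at 1.14 without input 1, and RNVU1-18 was at -0.75 without IP 1.

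U1 genes with fewer counts gave wide intervals. RNU1-3, a major U1 gene, had 3 and 0 counts in the IP libraries and 10 and 6 in the inputs. Its ratio of pooled counts (IP over input, relative to TMM-scaled library totals) was 2.13, with an exact interval from 0.397 to 7.42. The pseudogenes RNU1-88P, RNU1-28P and RNU1-67P had 2, 2 and 3 counts over both IP libraries and 13, 12 and 6 over both inputs. RNU1-89P and RNVU1-27 had 5 input counts each and 0 in IP, below what these depths can tell apart.

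How U1 counts were divided among the genes does not depend on scaling between libraries. RNU1-4 held 23.2% and 18.3% of U1 counts in IP 1 and 2 (Wilson intervals 17.9% to 29.6% and 12.0% to 26.8%). In input 1 and 2 it held 34.96% and 30.8% (32.6% to 37.4% and 28.7% to 33.1%). Both IP shares were lower than both input shares, with intervals of IP 1 and input 2 that overlapped.

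RNVU1-28 held 32.3% and 43.3% in IP (26.2% to 39.1% and 34.2% to 52.9%) and 25.1% and 29.3% in input (23.1% to 27.4% and 27.2% to 31.5%). Both IP shares were higher than both input shares, and the interval of IP 2 lay above those of both inputs. RNVU1-31 held 9.60% and 9.62% in IP (6.23% to 14.5% and 5.31% to 16.8%) and 12.8% and 15.9% in input (11.3% to 14.6% and 14.3% to 17.8%). Both IP shares were lower than both input shares, with intervals that overlapped throughout. RNVU1-7 (5.56% and 13.5% in IP, 5.97% and 6.82% in input) and RNU1-1 (6.57% and 3.85% against 4.36% and 3.0%) overlapped between the groups.

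**Figure D3:**
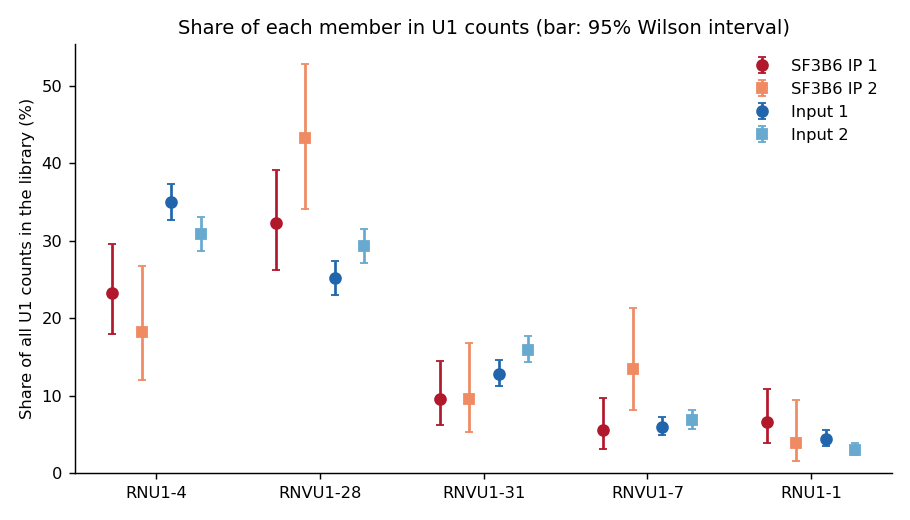
Share of all U1 counts held by each of the 5 genes in each library, in percent, with 95% Wilson intervals. RNVU1-28 held 32.3% and 43.3% in IP against 25.1% and 29.3% in input, and RNU1-4 held 23.2% and 18.3% against 34.96% and 30.8%.

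The order of RNU1-4 and RNVU1-28 differed between IP and input in the same way when set as a ratio. RNU1-4 over RNVU1-28 was 0.719 and 0.422 in IP 1 and 2, with exact intervals from 0.481 to 1.07 and from 0.233 to 0.737. In input 1 and 2 it was 1.39 and 1.05 (1.22 to 1.59 and 0.929 to 1.19). On the log2 scale the means were -0.86 ± 0.54 in IP and 0.27 ± 0.28 in input (SD, n = 2), a difference of -1.13. The exact permutation test, two-sided, gave p = 0.333, the smallest that 2 against 2 libraries allow, and 0.556 after adjustment over the 10 pairs of the 5 genes.

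Of these 10 pairs, 6 had ratios that did not overlap between IP and input. They were the 6 that set RNU1-4 or RNVU1-31 against RNVU1-28, RNVU1-7 or RNU1-1. The log2 differences were 1.01 for RNVU1-7, 1.04 for RNVU1-28 and 1.05 for RNU1-1 over RNVU1-31, 1.15 for RNU1-1 over RNU1-4, and -1.11 for RNU1-4 over RNVU1-7. The last was -1.92 without IP 1 and -0.30 without IP 2, and RNVU1-7 over RNVU1-31 was 1.65 and 0.38. Across all 425503 pairs of genes with a mean of at least 200 CPM and counts in every library, 57.4% did not overlap, so 6 of 10 is near the background. The remaining 4 pairs overlapped, with differences from -0.10 to 0.04.

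Split by kind, the 11 variant genes held 57.1% and 72.1% of U1 counts in IP, and 51.2% and 58.6% of those in input. The groups overlapped, since IP 1 lay between the inputs, and the means were 64.6 ± 10.6% and 54.9 ± 5.23% (SD, n = 2). The major genes RNU1-1, RNU1-2, RNU1-3 and RNU1-4 together held 34.3% and 25.0% in IP, and in the inputs 44.8% and 36.3%. The 11 pseudogenes held 8.59% and 2.88% in IP and 4.04% and 5.12% in input.

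U1 was set against the other snRNA families within each library, which also needs no scaling. U2, the RNA of the snRNP that holds SF3B6, had 0.944 and 0.394 counts per U1 count in IP 1 and 2, and 0.0776 and 0.0371 in input 1 and 2. The log2 ratio of U2 to U1 was -0.71 ± 0.89 in IP and -4.22 ± 0.75 in input (SD, n = 2), a difference of 3.51. The groups did not overlap, and the exact permutation test, two-sided, gave p = 0.333 (0.667 after adjustment over 4 ratios), the smallest it can give here. Ratios of 57.4% of pairs of single abundant genes did not overlap either. That share takes in differences of any size, and the size of 3.51 was not set against a background. Without IP 1, which had 187 U2 counts against 41 in IP 2, the difference was 2.88, and without IP 2 it was 4.14.

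U4, which pairs with U6 in the tri-snRNP, had 0.702 and 1.02 counts per U1 count in the IP libraries and 0.284 and 0.326 in the inputs. The log2 difference was 1.47, without overlap (exact permutation p = 0.333, 0.667 adjusted), as for 57.4% of pairs of single abundant genes. U5, which holds exon ends during splicing, had 0.0960 and 0.0962 counts per U1 count in the IP libraries and 0.0930 and 0.105 in the inputs. 7SK, a nuclear RNA outside the spliceosome that regulates transcript elongation, had 1.70 and 2.03 counts per U1 count in the IP libraries and 1.63 and 2.04 in the inputs. For U5 and 7SK the groups overlapped, with log2 differences of -0.04 and 0.02 (exact permutation p = 1 for both), and the sign of both turned when single libraries were left out.

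U1 was therefore 36.5% and 39.8% of the counts of U1, U2, U4 and U5 together in IP, and 68.7% and 68.1% in input. These shares rest on 543 and 261 counts in IP and on 2268 and 2496 in input.

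**Figure D4:**
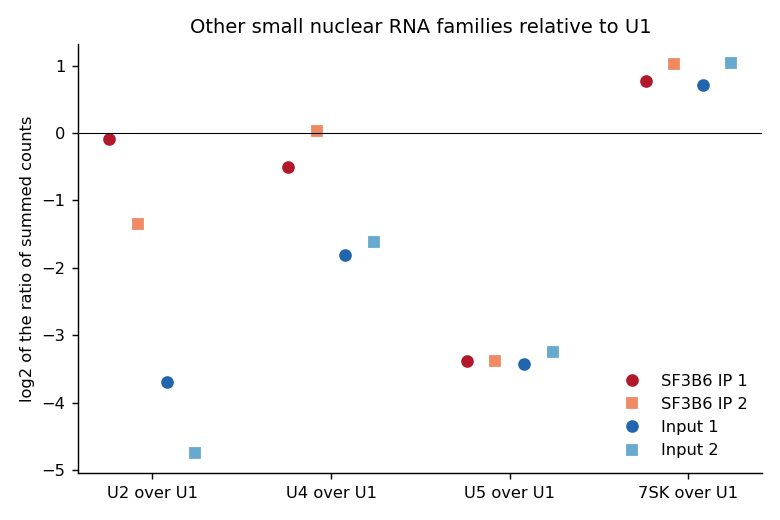
Log2 ratio of the summed counts of U2, U4, U5 and 7SK to those of U1 in each library. The ratios of U2 and U4 were higher in both IP libraries than in both inputs, by 3.51 and 1.47 on average, while those of U5 and 7SK overlapped. Of pairs of single abundant genes, 57.4% had ratios that did not overlap between IP and input, whatever the size of the difference.

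The direction of the fold change of RNVU1-28, RNVU1-7 and RNU1-1 depended on the scaling between libraries, turning with the totals behind FPKM. RNU1-4 and RNVU1-31 were lower in IP in each scaling. Another scaling shifts all genes by nearly the same amount, so the distance from the median gene is nearly fixed by construction and is given only to place U1 among the genes. The U1 sum was at -0.01 with TMM, 0.01 with DESeq2 size factors, -0.15 by upper quartiles, -0.26 by library totals and -1.58 by the totals behind the FPKM values. The medians of all tested genes were -0.06, -0.04, -0.19, -0.31 and -1.65 in these scalings. Relative to the median, the U1 sum ran from 0.04 to 0.07, RNU1-4 from -0.59 to -0.56 and RNVU1-31 from -0.49 to -0.48. RNVU1-28 ran from 0.51 to 0.52, RNVU1-7 from 0.49 to 0.53 and RNU1-1 from 0.67 to 0.74. With the totals behind FPKM 3 of the 5 genes passed as lower in IP, RNU1-4, RNVU1-31 and RNVU1-28 (edgeR adjusted p = 0.000162, 0.00134 and 0.0285). In that setting 2115 of 3668 tested genes passed, 2098 of them as lower.

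**Figure D5:**
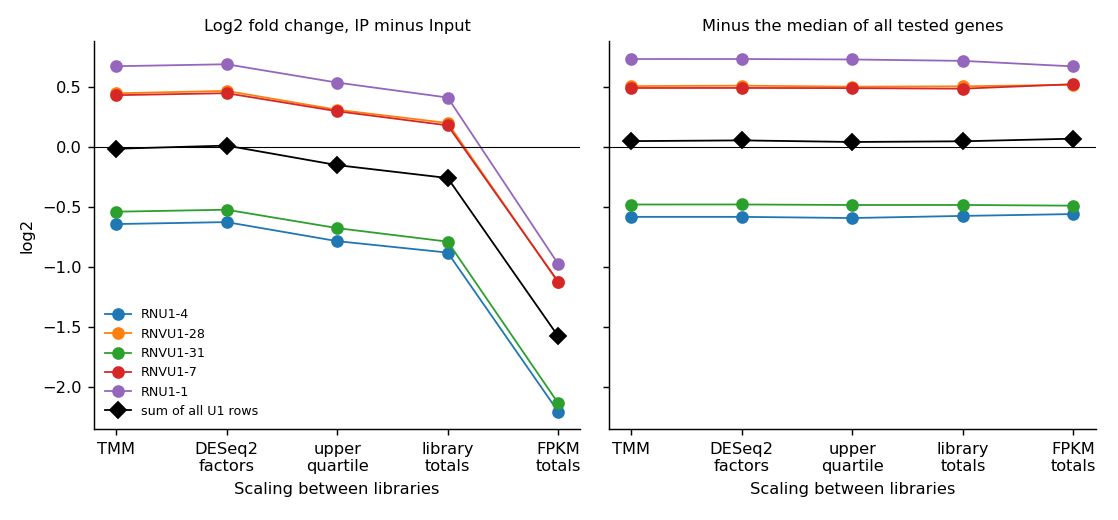
Log2 fold change of the 5 genes and of the U1 sum under 5 scalings between libraries, as fitted (left) and minus the median of all tested genes (right). The fitted sum ran from 0.01 to -1.58, and the right panel takes out the shift that a scaling gives all genes alike, which leaves 0.04 to 0.07 by construction.

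Genes whose levels over the 4 libraries were most like those of the U1 sum were sought by distance between centred log2 CPM profiles, among 921 genes with at least 200 CPM. The nearest were FBXL6 (distance 0.245), the long non-coding RNA CH507-513H4.3 (0.255), OAZ1 (0.276), TNFRSF12A (0.293) and TNPO2 (0.322). Their log2 fold changes ran from 0.08 for FBXL6 to 0.29 for OAZ1. With 4 libraries such a likeness is a description only.

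Messengers of proteins that bind or build U1 did not pass either. Of 15 listed genes of U1 snRNP proteins and partners, 4 had enough counts to be tested and 0 passed (edgeR; 4.06% of all tested genes did), with 1 at unadjusted p under 0.05 (15.6% of all tested genes) and a median log2 fold change of 0.39 against -0.06 over all tested genes. SNRNP70, which encodes the 70K protein of U1, had 27 and 11 counts in the IP libraries and 119 and 206 in the inputs (0.40 ± 0.25, edgeR adjusted p = 0.455). LUC7L, a U1-associated protein gene named after its value was seen, was the 1 at an unadjusted p under 0.05 (1.78 ± 0.65, edgeR adjusted p = 0.131). It met the filter on low counts only through the IP libraries (110 and 131 CPM, against 35.2 and 32.6 CPM in input). The difference of LUC7L was thus partly selected by the filter, and it enters the median of these 4 genes. DDX5, an RNA helicase, had 5 and 4 against 32 and 65 (0.07 ± 0.52, 0.975). Of 8 genes of the Sm ring, which U1 shares with U2, U4 and U5, 2 were tested and 0 passed (0 at unadjusted p under 0.05). SNRPB was at -0.97 ± 0.61 (adjusted p = 0.457) and SNRPD2 at -0.22 ± 0.76 (0.944), with 4 IP counts in SNRPD2.

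Of 40 genes of U1 transcription and assembly, 6 were tested and 0 passed (edgeR; 4.06% of all tested genes did), with 3 at unadjusted p under 0.05 (15.6% of all tested genes) and a median of 0.57. INTS1, a subunit of the Integrator complex that cuts snRNA 3′ ends, had 40 and 11 counts in the IP libraries and 150 and 250 in the inputs (0.52 ± 0.24, edgeR adjusted p = 0.267). INTS11, the nuclease of Integrator, had 23 and 6 against 52 and 102 (1.09 ± 0.33, 0.0532), and passed with DESeq2 size factors and without IP 2. The other at an unadjusted p under 0.05 was SNAPC4, a subunit of the snRNA activating complex, named after its value was seen (0.90 ± 0.38, edgeR adjusted p = 0.216). Of 16 genes of SF3a, SF3b and other U2 proteins, 4 were tested and 0 passed (0 at unadjusted p under 0.05), with a median of 0.27. SF3B2 was at 0.35 ± 0.49 (adjusted p = 0.818) and SF3A2 at 0.69 ± 0.52 (0.560).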

How the data were processed

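Gene counts and FPKM values of the same 4 libraries were used as the authors deposited them. HISAT2, HOMER and hg38 are named, without version or role, per the submitters' processing notes. Which program counted reads, and with what strand and multi-mapping rules, was not given in the sources used here. Counts were tested as deposited with edgeR 4.0.16 (R 4.3.3) by quasi-likelihood after TMM scaling and edgeR's default filter on low counts, with Benjamini-Hochberg adjustment over all 3668 genes and a threshold of 0.05. DESeq2 1.42.0 and limma 3.58.1 (on log2 of FPKM plus a pseudocount of 0.1, 1 or 10) were alternatives. The U1 sum was fitted as 1 feature, with no p-value. Each edgeR SE was worked out as the absolute log2 fold change divided by the square root of the quasi-likelihood F statistic. Library totals behind FPKM were taken as the median, over the 5 genes, of counts divided by FPKM and RefSeq length. Shares have Wilson 95% intervals, and ratios of counts have exact ones.

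Named genes were the 5 U1 genes, other U1 genes with at least 5 counts, the 2 tested members with the highest mean CPM of each gene list with any called, and the 5 profiles nearest to the U1 sum. The 5 genes and the lists were chosen with earlier results of these data known. Ratios between U1 genes were added after seeing the data. Replicate numbers were shared by IP and input, but the labels state no pairing, so the fit has no block. Deviations of same-numbered libraries had a correlation of 0.000443 over 3668 genes. With so few IP counts per gene this cannot tell whether libraries were paired. Chi-square divided by its degrees of freedom was 2.49 between the IP libraries and 1.50 between the inputs, above counting noise, which does not show that they are separate cultures. Gene positions came from RefSeq GRCh38.p14. The knockdown RNA-seq of the study was not analysed here.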

Additional observations from a re-analysis of the deposited data

How the results depend on the processing

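Against 149 genes called in all, the totals behind FPKM called 2115 and DESeq2's test 38. Of 5263 genes, log2(FPKM + 1), + 0.1 and + 10 called 1894, 449 and 644 (limma), of which 1862, 444 and 623 were lower in IP. With no filter on counts edgeR called 213 of 18276 genes, 163 of them as lower. Log2(FPKM + 1) with no filter called 0, with 5485 at an unadjusted p under 0.05. Leaving out 1 library gave 31 (without input 2) to 164 (without IP 2), with 45 without IP 1 and 49 without input 1. Calls higher in IP made up 66.4% under TMM, 49.3% by upper quartiles, 38.4% by library totals and 0.804% by the totals behind FPKM. With a replicate block 90 genes were called, 0 of them U1 genes, and the U1 sum was at 0.01. The numbers are shared only as numbers.

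The U1 sum (-0.01) moved to -1.58 with the totals behind FPKM, -0.49 with no filter, and -1.59, -1.59 and -1.58 on log2(FPKM + 1), + 0.1 and + 10, and ran from -0.27 to 0.42 without single libraries. On the totals behind FPKM, no filter, log2(FPKM + 1) and log2(FPKM + 10), RNU1-4 passed at -2.21, -1.11, -2.26 and -2.22. RNVU1-31 passed at -2.14, -2.15 and -2.08 on the same settings except no filter, and there RNVU1-28 also passed as lower in IP (adjusted p = 0.0285 with edgeR, 0.0437 and 0.0355 with limma). On the totals behind FPKM, log2(FPKM + 1), + 0.1 and + 10, the sign turned for RNVU1-28 (-1.13, -1.12, -1.13, -1.11), RNVU1-7 (-1.12, -1.14, -1.15, -1.08), RNU1-1 (-0.97, -1.10, -1.11, -1.01), RNVU1-29 (-1.05, -1.14, -1.15, -1.04), RNU1-27P (-1.15, -1.92, -1.97, -1.57) and RNVU1-18 (-1.42, -1.67, -1.69, -1.45). Log2(FPKM + 1) with no filter gave the same values as with it. With no filter on counts the sign also turned for RNVU1-28 (-0.034), RNVU1-7 (-0.044) and RNVU1-18 (-0.27), and with library totals for RNVU1-18 (-0.051). The cause was not tested.

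Without single libraries the log2 fold change ran from -1.04 to -0.14 for RNU1-4, 0.16 to 0.75 for RNVU1-28, -0.72 to -0.33 for RNVU1-31, -0.26 to 0.95 for RNVU1-7, -0.044 to 1.25 for RNU1-1, -1.83 to 0.88 for RNU1-27P, -0.97 to -0.22 for RNU1-2, 0.0020 to 1.14 for RNVU1-29 and -0.75 to 0.38 for RNVU1-18. RNU1-2 was not tested without input 1, and RNVU1-18 was not tested without either input. The ranges of these genes cover fewer fits. The log2 difference ran from 2.88 to 4.14 for U2 over U1, 1.205 to 1.74 for U4, -0.12 to 0.047 for U5 and -0.14 to 0.19 for 7SK. U5 was at 0.011 without pseudogenes. Within U1 it ran from -1.92 to -0.30 for RNU1-4 over RNVU1-7, 0.38 to 1.65 for RNVU1-7 over RNVU1-31, 0.93 to 1.36 for RNU1-1 over RNU1-4, 0.62 to 1.48 for RNU1-1 over RNVU1-31, 0.83 to 1.25 for RNVU1-28 over RNVU1-31, -1.52 to -0.75 for RNU1-4 over RNVU1-28, -0.99 to 1.06 for RNU1-1 over RNVU1-7, -0.58 to 0.61 for RNU1-1 over RNVU1-28, -0.35 to 0.15 for RNU1-4 over RNVU1-31 and -0.45 to 0.40 for RNVU1-7 over RNVU1-28. The variant share was 9.71 percentage points higher in IP, and 2.18 to 17.2 without single libraries. With the totals behind FPKM 2 of 2 tested Sm genes and 1 of 4 U1 snRNP genes passed. So did 2 of 6 genes of U1 transcription and assembly and 1 of 4 U2 genes, against 2115 of all 3668 tested genes. INTS11 passed with DESeq2 size factors, and lists had 0 to 1 calls without single libraries. IP depth limits U1 genes with few counts.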
